A study of Mus musculus with 6 samples.

Results

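The genes described here handle zinc in the pancreatic islet: 4 exporters of the ZnT family (Slc30a8, Slc30a1, Slc30a5 and Slc30a7), 4 importers of the ZIP family (Slc39a6, Slc39a7, Slc39a10 and Slc39a14) and the metallothioneins Mt1 and Mt2. They were taken by symbol from the platform's probe annotation, which named 20 probe sets for these 10 genes among 45037 probe sets other than array controls. No member was named together with another gene on a probe set. Of the 20 probe sets, 16 passed the filter on dim signals, with at least 1 for each gene.

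RNA came from islets of OF1 male mice, 10 weeks old, in 2 groups of 3 samples, each measured on its own Affymetrix array. The BPA group had received bisphenol A, a plasticiser that binds oestrogen receptors, and the control group its vehicle. According to the series' design, BPA at 100 µg/kg/day, given as injections of 50 µg/kg under the skin for 4 days in corn oil, was set against 100 µL of the same oil, and islets were taken 16 hours after the last dose. The samples' protocol gives 2 days instead, and their source names speak of 1 nM BPA over 48 hours, so the labels disagree. They call the samples biological replicates and do not say how many mice each came from, so p-values measure only the spread between these samples.

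Beta cells hold much zinc in their secretory granules, where it holds insulin together in hexamers and leaves the cell with it. ZnT proteins carry zinc out of the cytosol, across the plasma membrane or into organelles, and ZIP proteins carry it into the cytosol from outside or from organelles. Metallothioneins are small cysteine-rich proteins that bind zinc, copper and cadmium. In mice the transcription factor MTF-1, encoded by Mtf1, senses cytosolic zinc and drives Mt1, Mt2 and Slc30a1 through metal response elements in their promoters. Glucocorticoids and oxidative stress also induce metallothioneins.

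The sequences below are the 250 bases before a RefSeq start of Mt1, Mt2 and Slc30a1 (GRCm38.p6, plus strand, 5′ to 3′), shown because these are the members best known as MTF-1 targets. Capitals mark matches to the core of the metal response element, TGCACNC or TGCGCNC, on either strand. The windows are chr8:94178839-94179088 for Mt1, chr8:94172368-94172617 for Mt2 and chr1:191906531-191906780 for Slc30a1.
Mt1: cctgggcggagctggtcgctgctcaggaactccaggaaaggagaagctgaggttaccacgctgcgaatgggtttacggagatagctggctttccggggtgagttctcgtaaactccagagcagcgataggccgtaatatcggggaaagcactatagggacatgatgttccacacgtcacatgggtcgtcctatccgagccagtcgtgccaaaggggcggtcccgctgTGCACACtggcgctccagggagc
Mt2: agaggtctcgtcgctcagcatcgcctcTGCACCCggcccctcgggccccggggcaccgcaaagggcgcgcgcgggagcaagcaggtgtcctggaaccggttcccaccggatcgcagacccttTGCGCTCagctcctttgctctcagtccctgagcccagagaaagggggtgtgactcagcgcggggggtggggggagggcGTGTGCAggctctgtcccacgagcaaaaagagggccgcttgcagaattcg
Slc30a1: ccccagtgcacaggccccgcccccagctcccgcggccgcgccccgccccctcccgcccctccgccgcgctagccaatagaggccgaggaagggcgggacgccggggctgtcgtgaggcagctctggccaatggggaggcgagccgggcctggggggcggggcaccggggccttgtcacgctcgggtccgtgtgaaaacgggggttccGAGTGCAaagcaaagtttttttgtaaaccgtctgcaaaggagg
Mt2 and Mt1 are next to each other among the protein-coding genes of mouse chromosome 8. Counted over the window of 300 bases that RefSeq's table gives (250 before the start and 50 after it), Mt2 held 4 matches, Mt1 held 3 and Slc30a1 held 2. Of 32851 promoter windows of that length, 25.7% held at least 1 match, 7.11% at least 2, 1.97% at least 3 and 0.517% at least 4. Slc30a5 had 1 match, while the windows of Slc30a7 and Slc39a7 and both windows of Slc39a10 had 0. These 7 genes were the members matched in the table, and a match describes letters only.

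The arrays had median log2 signals between 6.55 and 6.65. BPA replicate 3 and control replicate 3 stood apart from the other 4 arrays: they correlated with each other at 0.993 over all probe sets, whereas the highest correlation of BPA replicate 3 within its own group was 0.983 and that of control replicate 3 was 0.986. The islet label matched the signals of defining hormone genes, with glucagon (Gcg) at 14.98 to 15.08 on BPA arrays and 15.07 to 15.14 on control arrays. The acinar gene Cela3b was bright too, at 14.26 to 15.09 and 13.58 to 15.05, so these signals do not give the share of islet cells. A technical measure also differed between groups: the 3′ minus 5′ signal of the array's 4 mouse control transcripts averaged 2.86 to 3.06 (log2) on BPA arrays and 3.26 to 3.54 on control arrays. The gap came from Gapdh (means of 2.83 on BPA and 3.56 on control arrays) and beta-actin (2.81 and 3.61), while the transferrin receptor (2.34 and 2.25) and pyruvate carboxylase (3.99 and 4.12) differed by less. Its part in the results below was not tested.

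BPA was set against control to find islet transcripts that differ after a short treatment, which the series' title places in the living animal. None of the 16 tested member probe sets passed limma's moderated test at an adjusted p under 0.05, where 0 of all 22518 tested probe sets (0%) passed. Unadjusted p-values under 0.05 were reached by 0 of the 16, against 6.47% of all tested probe sets. Without both replicate 3 arrays they were reached by 4 of the 16, against 13.6% of all tested probe sets, and with the replicate number as a block also by 4, against 13.5%. None of these passed after adjustment. Differences (BPA minus control) ran from -0.33 to 0.42 on the log2 scale, 9 above 0 and 7 below, with a median of 0.043 against 0.011 over all tested probe sets. Adjusted p-values of the 16 lay between 0.791 and 0.996. Groups did not overlap on 1 of the 16, a Slc30a1 probe set, while 12.2% of all tested probe sets had no overlap.

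**Figure D1:**
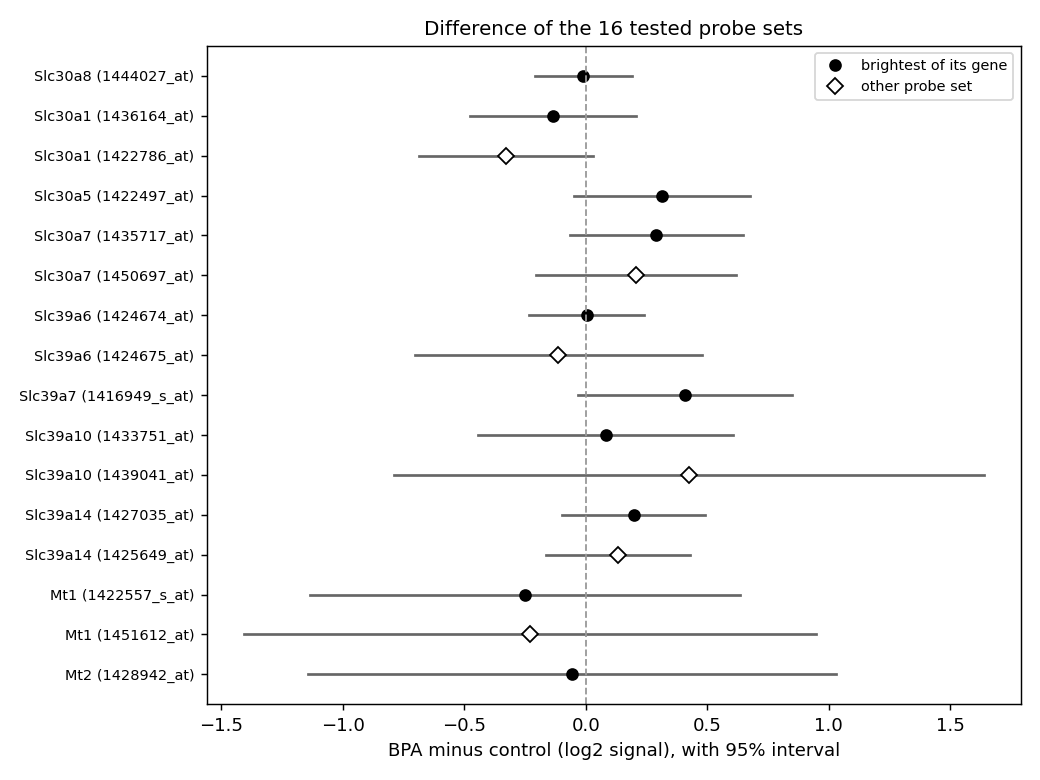
Difference between BPA and control (log2 signal, horizontal axis) for the 16 tested probe sets, with limma's 95% interval as a line. Filled circles are the brightest probe set of each gene and open diamonds the others. Every interval includes 0, and the intervals of the metallothioneins and of the dimmer Slc39a10 probe set are the widest.

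Slc30a8 encodes ZnT8, which loads zinc into insulin granules. Its single probe set read 13.27, 13.38 and 13.48 (log2) in BPA replicates 1 to 3, against 13.37, 13.32 and 13.46 in control replicates 1 to 3. The groups overlapped and all 6 values fell within 0.204 of each other, the narrowest range among the brightest probe sets of the 10 genes. BPA arrays averaged 13.38 ± 0.10 and control arrays 13.39 ± 0.07 (SD, n = 3 each). The difference was -0.0090 ± 0.0839 (SE, adjusted p = 0.992). Its 95% interval puts the BPA signal between 0.865 and 1.14 times the control signal, so larger shifts of this probe set lie outside the interval.

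Slc30a1 encodes ZnT1, the exporter of the plasma membrane. Its brighter probe set (1436164_at) read 11.25, 11.12 and 11.24 after BPA, against 11.63, 11.14 and 11.26 in controls. Control replicate 1 was high and the remaining 5 values lay close together, so the groups overlapped. The difference was -0.13 ± 0.14 (SE, adjusted p = 0.895). The dimmer probe set (1422786_at) read 7.76, 7.78 and 7.58 after BPA and 8.29, 7.86 and 7.94 in controls. Here all BPA arrays were below all control arrays, by 0.082 at the nearest. That difference was -0.33 ± 0.15 (SE, adjusted p = 0.791), a signal after BPA of 0.797 times that of controls (95% interval 0.622 to 1.02). The 2 probe sets therefore had the same sign and differed in overlap.

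Slc30a5 and Slc30a7 encode ZnT5 and ZnT7, which carry zinc into the Golgi and early secretory pathway. For Slc30a5, BPA arrays read 11.63, 11.93 and 11.39 and control arrays 11.23, 11.44 and 11.34. BPA replicates 1 and 2 exceeded every control, while BPA replicate 3 lay among the controls. The difference was 0.31 ± 0.15 (SE, adjusted p = 0.796), or 1.24 times the control signal with an interval of 0.968 to 1.60. The brighter probe set of Slc30a7 (1435717_at) read 11.27, 11.22 and 10.79 after BPA, against 10.71, 10.87 and 10.82 in controls. Again BPA replicates 1 and 2 were above all controls and replicate 3 was not. Its difference was 0.29 ± 0.15 (SE, adjusted p = 0.801), and the other probe set of the gene (1450697_at) differed by 0.21 ± 0.17 (SE, adjusted p = 0.873).

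Slc39a7 encodes ZIP7, which releases zinc from the endoplasmic reticulum and Golgi into the cytosol. Its only probe set, whose suffix (_s_at) marks probes shared by several transcripts, read 12.17, 12.35 and 11.84 after BPA and 11.40, 11.94 and 11.79 in controls. BPA replicates 1 and 2 were above every control, and BPA replicate 3 lay between the control values. BPA arrays averaged 12.12 ± 0.26 and control arrays 11.71 ± 0.28 (SD, n = 3 each). The difference of 0.41 ± 0.18 (SE, adjusted p = 0.791) was the largest in size among the brightest probe sets, a signal 1.33 times that of controls with an interval of 0.980 to 1.80.

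The same array, BPA replicate 3, thus overlapped the controls for Slc30a5, Slc30a7 and Slc39a7. With both replicate 3 arrays left out, the differences were 0.45 ± 0.15 for Slc30a5, 0.45 ± 0.13 for the brighter Slc30a7 probe set and 0.59 ± 0.19 for Slc39a7 (SE, 2 arrays per group). Their adjusted p-values in that limma fit were 0.294, 0.234 and 0.279, and 0 probe sets of the whole table passed.

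Slc39a6 encodes ZIP6, an importer of the plasma membrane that can pair with ZIP10. Its brightest probe set (1424674_at) read 11.69, 11.71 and 11.58 after BPA and 11.76, 11.69 and 11.53 in controls. The groups overlapped throughout, and the difference was 0.0042 ± 0.0994 (SE, adjusted p = 0.996, 95% interval -0.23 to 0.24). The second tested probe set (1424675_at) differed by -0.11 ± 0.25 (SE), with control replicate 2 highest at 8.21. The other 2 probe sets of the gene, both with the suffix _x_at for probes that may cross-hybridise, averaged 4.52 and 3.94 after BPA and 4.68 and 4.07 in controls, under the filter, and were not tested.

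Slc39a10 encodes ZIP10, which imports zinc at the plasma membrane and which MTF-1 represses in mice. The brighter probe set (1433751_at) read 11.45, 11.61 and 10.86 after BPA and 11.25, 11.46 and 10.97 in controls. The dimmer one (1439041_at) read 7.67, 7.45 and 5.91 after BPA and 6.85, 7.00 and 5.90 in controls. The dimmer probe set passed the filter (6.60, a mean over 6 arrays) through the other 4 arrays, since its replicate 3 values and its control mean of 6.59 lay under it. On both probe sets the 2 replicate 3 arrays were the lowest of the 6, and the groups overlapped. Differences were 0.082 ± 0.221 (SE, adjusted p = 0.960) and 0.42 ± 0.51 (SE, adjusted p = 0.907). Without the replicate 3 arrays the limma fit gave 0.18 ± 0.14 (SE, adjusted p = 0.654) for the brighter probe set. For the dimmer one it gave 0.63 ± 0.15 (SE, adjusted p = 0.208).

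Slc39a14 encodes ZIP14, an importer of zinc, iron and manganese that inflammation induces in liver. The brightest probe set (1427035_at) read 9.57, 9.65 and 9.37 after BPA and 9.44, 9.24 and 9.32 in controls. BPA replicates 1 and 2 were the highest values and replicate 3 fell within the controls. The difference was 0.20 ± 0.12 (SE, adjusted p = 0.839), and a second tested probe set (1425649_at) differed by 0.13 ± 0.12 (SE, adjusted p = 0.887). Under the filter, the remaining 2 averaged 5.53 and 4.62 after BPA and 5.42 and 4.82 in controls, and were not tested.

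**Figure D2:**
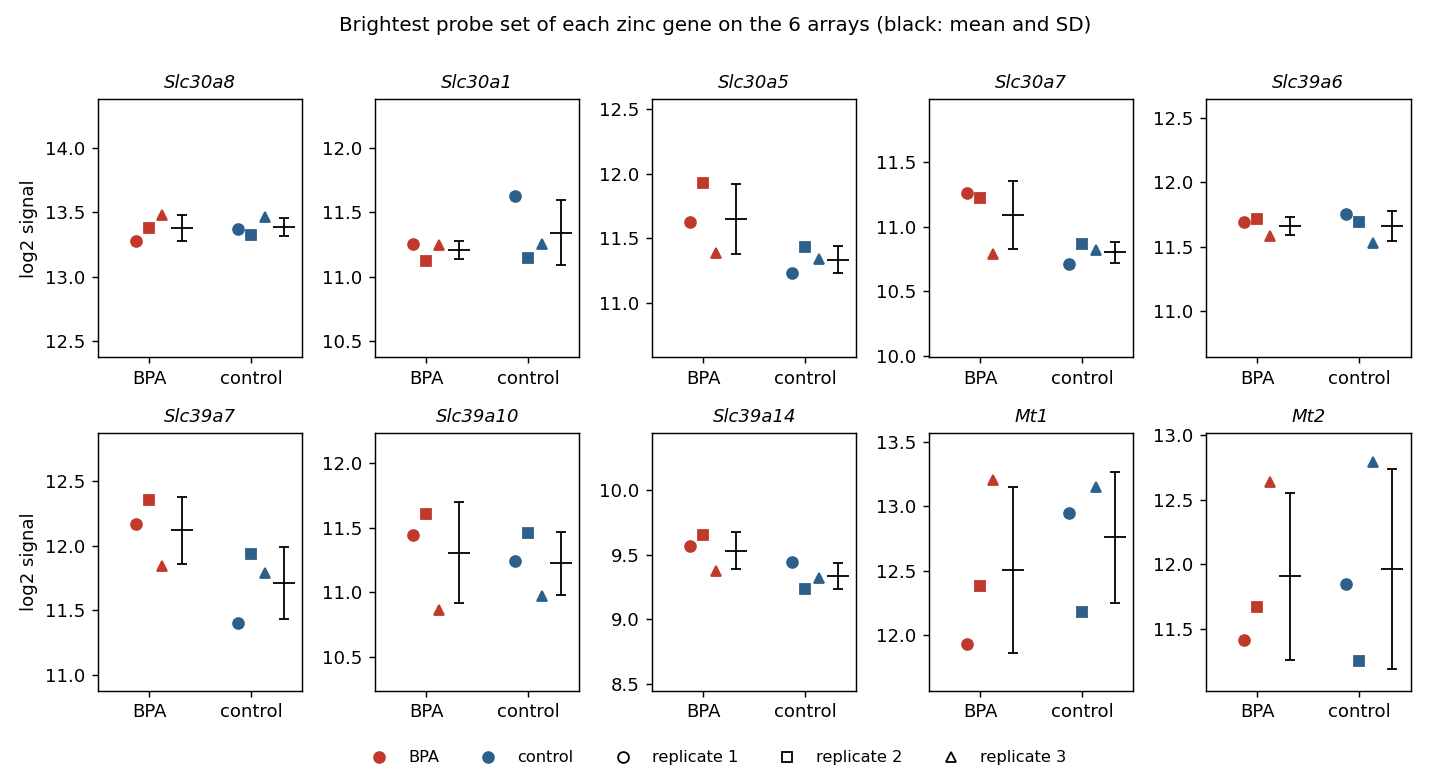
Log2 signal (vertical axis) of the brightest probe set of each of the 10 genes, BPA at the left of each panel and control at the right. Marker shapes give the replicate number and black bars the mean and SD of 3 arrays. All panels span the same number of log2 units. Slc30a8 and Slc39a6 are tightly grouped, and for Mt1 and Mt2 the replicate 3 arrays (triangles) lie at the top of both groups.

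Mt1 and Mt2 had the widest spread among the brightest probe sets, within both groups. The brighter Mt1 probe set (1422557_s_at) read 11.94, 12.38 and 13.20 after BPA and 12.95, 12.18 and 13.15 in controls. Its suffix (_s_at) again marks probes shared by several transcripts. The dimmer one (1451612_at) read 8.64, 8.77 and 9.92 after BPA and 9.05, 8.69 and 10.28 in controls. Mt2, on 1 probe set (1428942_at), read 11.41, 11.67 and 12.64 after BPA and 11.85, 11.25 and 12.79 in controls. In all 3 probe sets the replicate 3 arrays were the highest of both groups, and the groups overlapped.

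BPA and control means of Mt1 were 12.51 ± 0.64 and 12.76 ± 0.51 on the brighter probe set (SD, n = 3 each), a difference of -0.25 ± 0.37 (SE, adjusted p = 0.924). The dimmer Mt1 probe set differed by -0.23 ± 0.49 (SE, adjusted p = 0.948). Mt2 averaged 11.91 ± 0.65 on BPA arrays and 11.96 ± 0.78 on control arrays (SD, n = 3 each), with a difference of -0.057 ± 0.456 (SE, adjusted p = 0.990). The SE of Mt2 compares with a median of 0.149 over all tested probe sets. Its 95% interval spans 0.453 to 2.04 times the control signal, so a change of moderate size in either direction was not detectable with these arrays. Left out one at a time, BPA replicate 1 turned both genes (0.036 for the brighter Mt1 probe set and 0.19 for Mt2), and BPA replicate 2 or control replicate 3 turned Mt2 (0.063 and 0.36).

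The replicate 3 arrays were set against the other 4 after the values had been seen, so the following is a description with no test. Their mean signal was 1.76 times that of the other arrays for the brighter Mt1 probe set, 2.48 times for the dimmer one and 2.26 times for Mt2. For the brighter Slc39a10 probe set it was 0.697 times, while the dimmer one lay under the filter on these arrays and is given no ratio. Of the 16 tested member probe sets, 4 were higher on both replicate 3 arrays than on all others (the 3 of the metallothioneins and that of Slc30a8), and 4 were lower (the 2 of Slc39a6 and the 2 of Slc39a10). The dimmer Slc39a10 probe set passed the filter only through the other 4 arrays, so its place in this count was partly set by the filter. Among all tested probe sets 14.6% were higher in this way and 21.3% lower, so many other genes shared the pattern. For Slc30a8 the signal of the replicate 3 arrays was 1.10 times that of the others.

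**Figure D3:**
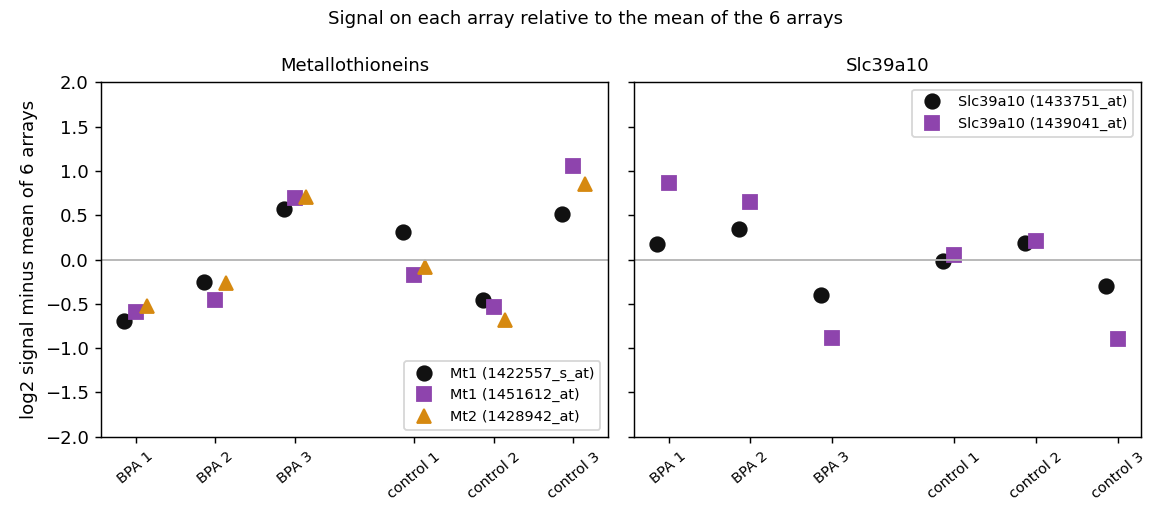
Log2 signal minus the mean of the 6 arrays (vertical axis) for the metallothionein probe sets (left) and the Slc39a10 probe sets (right), array by array, BPA before control. Metallothionein signals are highest and Slc39a10 signals lowest on BPA replicate 3 and control replicate 3. The dimmer Slc39a10 probe set (1439041_at) lies under the filter on these arrays and passed it only through the others.

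Marker genes of exocrine tissue moved across the same arrays. Relative to the mean of the 6 arrays, 11 measured acinar cell genes of a list of 16 averaged 0.89, 0.03 and -0.42 in BPA replicates 1 to 3 and 0.30, 0.56 and -1.36 in control replicates 1 to 3. On both replicate 3 arrays 10 of the 11 were lower than on the other 4. Of these, Ptf1a passed the filter (6.60) only through the other 4 arrays, reading 6.49 and 6.33 on the replicate 3 arrays. The chymotrypsinogen gene Ctrb1 read 14.83, 14.41 and 13.89 after BPA and 14.31, 14.61 and 12.63 in controls. In bulk islet RNA, fewer cells of a type and less RNA per cell cannot be told apart. The part of this exocrine signal in the metallothionein and Slc39a10 values was not tested. Means of the stellate cell list (11 of 11 genes measured) ran from -0.03 to 0.58 on BPA arrays and from -0.51 to 0.01 on control arrays, those of the immune list (9 of 11) from -0.03 to 0.42 and from -0.28 to 0.03. Both were highest in BPA replicate 1, as were the lists of acinar, duct and glia and nerve genes (0.89, 0.48 and 0.34). On that array Fn1 (stellate) read 11.14 and Lyz2 (immune) 10.77, with next highest values of 8.46 and 9.22. Both Mt1 probe sets were lowest there, whereas Mt2 was lowest in control replicate 2 (11.25). The part of these lists in the Mt1 and Mt2 values was not tested. Median differences of the acinar, stellate cell and immune lists were 0.28, 0.28 and 0.098. Those of the other cell type lists were -0.088 for alpha cells, -0.017 for beta cells, 0.25 for delta and PP cells, 0.15 for duct cells, -0.029 for endothelial cells and 0.30 for glia and nerve, and 0 genes of any list passed the test.

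Genes that respond to zinc or induce metallothioneins were read beside these values. Mtf1 itself read 8.89, 9.05 and 9.10 after BPA and 9.07, 8.91 and 9.08 on control arrays. The difference was -0.0072 ± 0.1177 (SE, adjusted p = 0.995). Its groups overlapped. Its highest values were on the replicate 3 arrays, as for 14.6% of all tested probe sets. Control replicate 3 was barely above control replicate 1 (9.078 and 9.073). Mt3, the metallothionein of brain, differed by 0.12 ± 0.11 (SE), and Mt4, too dim to be tested, averaged 4.75 ± 0.12 on BPA arrays and 4.60 ± 0.05 on control arrays (SD, n = 3 each). In the list of zinc sensing and other metallothionein genes, only 10 of the 12 symbols were named on the array. Of these 8 were measured, 5 with differences above 0 and 3 below (6 and 2 with arrays centred on their medians, where Mtf1 turned), with 0 past the test and a median of 0.16. The smallest p belonged to Crip2, which encodes a LIM domain protein, at 0.28 ± 0.13 (SE, adjusted p = 0.791) without overlap between groups, followed by the related Crip1 at 0.22 ± 0.17 (SE, adjusted p = 0.866). Gpr39, which encodes a zinc-sensing receptor, was too dim to be tested, with 5.54 ± 0.06 on BPA arrays and 5.26 ± 0.11 on control arrays (SD, n = 3 each).

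Among the glucocorticoid response genes 9 of 10 were measured, 2 with differences above 0 and 7 below (3 and 6 under each other scaling, where Sgk1 turned), with 0 past the test and a median of -0.082. Fkbp5, a co-chaperone of steroid receptors, differed by -0.34 ± 0.22 (SE, adjusted p = 0.842) and Nr3c1, the glucocorticoid receptor, by -0.11 ± 0.11 (SE, adjusted p = 0.889). Of 10 measured oxidative stress genes 5 lay on each side of 0 and 0 passed, with a median of -0.0061. The glutathione peroxidase gene Gpx1 read 12.07, 11.84 and 11.90 after BPA and 11.68, 11.73 and 11.59 in controls, higher on every BPA array (0.27 ± 0.10, SE, adjusted p = 0.736). Catalase (Cat) differed by -0.37 ± 0.18 (SE, adjusted p = 0.796) with overlapping groups. In the interleukin 6 and acute phase list, 5 of 9 measured genes were above 0 and 4 below, with 0 past the test and a median of 0.064. Its smallest p-values belonged to the signal transducer Stat3 (0.39 ± 0.16, SE, adjusted p = 0.753) and to Nfkbiz (-0.39 ± 0.22, SE, adjusted p = 0.832). On both replicate 3 arrays 3 of the 9 glucocorticoid genes were higher than on the other 4 and 1 was lower. Those counts were 1 and 4 for oxidative stress and 1 and 2 for the acute phase list. Over all tested probe sets the shares were 14.6% and 21.3%. The part of these genes in the metallothionein values was not tested.

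The remaining zinc transporters were measured for 4 of 6 ZnT and 7 of 10 ZIP genes. The 4 ZnT genes, Slc30a3, Slc30a4, Slc30a6 and Slc30a9, differed by 0.058, -0.095, -0.034 and 0.026, with a median of -0.0042 and 0 past the test. All 7 ZIP genes had differences above 0 (6 of 7 under cyclic loess, where Slc39a9 turned), with a median of 0.095, though 0 passed and 52.6% of all tested probe sets lay above 0. Slc39a1, an importer of the plasma membrane, read 9.67, 9.65 and 9.62 after BPA and 9.56, 9.50 and 9.11 in controls, and was the 1 gene of the 7 without overlap (0.26 ± 0.15, SE, adjusted p = 0.832), a share near the 12.2% of all tested probe sets. Slc39a8, which encodes the zinc, cadmium and manganese importer ZIP8, had the largest difference and the largest spread. Its values were 9.47, 10.14 and 7.05 after BPA and 8.14, 8.57 and 7.89 in controls, so BPA replicates 1 and 2 were the highest arrays and BPA replicate 3 the lowest. The difference was 0.68 ± 0.74 (SE, adjusted p = 0.896).

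Slc39a5 encodes ZIP5, an importer of exocrine pancreas and gut epithelium. It read 8.15, 7.19 and 6.53 after BPA and 7.16, 7.58 and 6.53 in controls, with a difference of 0.20 ± 0.44 (SE). On both replicate 3 arrays it was lower than on the other 4, as were 5 of the 7 ZIP genes, itself and Slc39a3, Slc39a8, Slc39a9 and Slc39a13 (21.3% of all tested probe sets). Slc39a5 passed the filter (6.60) only through the other 4 arrays, so its place in that count was partly set by the filter. Slc39a3, Slc39a9, Slc39a11 and Slc39a13 differed by 0.090, 0.012, 0.095 and 0.032. Under the filter and without a test were Slc30a2 at 4.61 after BPA and 4.67 in controls, Slc30a10 at 4.65 and 4.64, Slc39a2 at 5.16 and 5.02, Slc39a4 at 4.74 and 4.84, and Slc39a12 at 3.75 and 3.80.

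**Figure D4:**
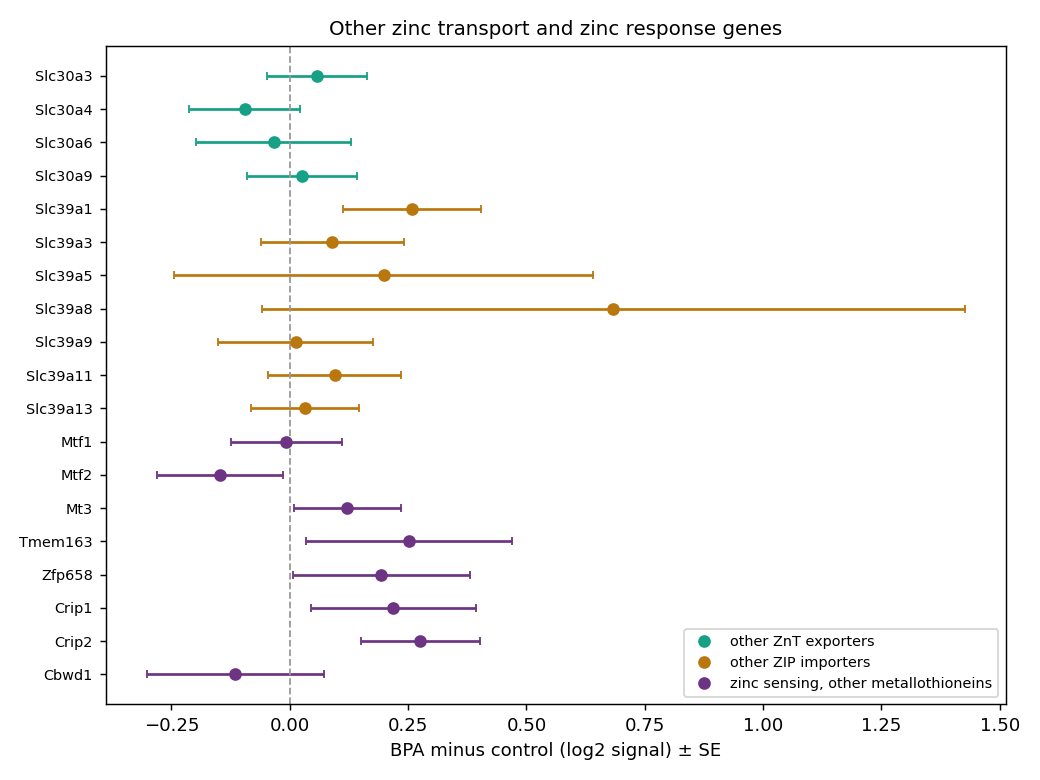
Difference between BPA and control (log2 signal, horizontal axis) ± SE for the other measured ZnT genes, ZIP genes and zinc sensing or metallothionein genes, each on its brightest tested probe set. The ZIP genes lie above 0 (Slc39a9 turned under cyclic loess), Slc39a8 has the widest error, and 0 of the genes passed limma's test.

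Carriers of other metals and genes of granule contents were read as well. Of 12 measured genes of iron, copper and other metal transport 7 were above 0 and 5 below (8 and 4 under quantile normalization or median centring, where Cnnm4 turned), with 0 past the test and a median of 0.049. The copper chaperone gene Ccs read 9.45, 9.38 and 9.22 after BPA and 8.94, 8.95 and 9.11 in controls, without overlap (0.35 ± 0.12, SE, adjusted p = 0.703). Atox1, another copper chaperone, differed by 0.36 ± 0.17 (SE, adjusted p = 0.796). Of 11 measured genes of insulin granule contents 5 were above 0 and 6 below, with 0 past the test and a median of -0.011. Under cyclic loess scaling the same genes split 7 to 4. G6pc2, which encodes a glucose-6-phosphatase of the endoplasmic reticulum and not of the granule, read 13.67, 13.73 and 13.70 after BPA and 13.85, 13.99 and 13.80 in controls (-0.18 ± 0.08, SE, adjusted p = 0.764), again without overlap. The carboxypeptidase gene Cpe, which trims prohormones in the granule, differed by -0.10 ± 0.07 (SE, adjusted p = 0.855).

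The genes whose values over the 6 arrays were most like those of a member are given as a description. For Mt1, Mt2 and Slc30a8 the replicate 3 arrays were the highest. For Mt1 control replicate 1 was nearly as high (12.95 against 13.20 and 13.15). Of 19384 probe sets compared with Mt1 301 had a Pearson r above 0.9. Tsc22d4, Cdan1 and Dhdh were most like Mt1, with r of 0.997, 0.997 and 0.991 (n = 6 arrays). H13, Maco1 and Nudt5 were most like Mt2, with r of 0.997, 0.996 and 0.995 (n = 6 arrays). Pkd1, Stx3 and Cdr2l were most like Slc30a8, with r of 0.994, 0.994 and 0.993 (n = 6 arrays), although Stx3 ranged from 5.16 in BPA replicate 1 to 8.45 in control replicate 3 while Slc30a8 hardly varied.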

How the data were processed

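The table holds log2 signals as the authors deposited them, 1 for each probe set on each of 6 arrays. Per the submitters' processing notes MAS5 was used, without a version; the lowest values (2.95 to 3.04 per array) are unlike plain MAS5 signals, so the summary method and scaling are unknown. The values were used as deposited. Per the labels' protocols, 1 µg of total RNA was turned into biotin-labelled cRNA. Groups and replicate numbers come from the sample titles. After 64 array controls were set aside, probe sets with a mean above the median of all (6.60) were tested, 22518 in all, of which 19386 had 1 gene. The difference between BPA and control was fitted with limma (version 3.58.1, R 4.3.3) using lmFit and eBayes with a mean-variance trend. Tests were two-sided, adjusted by Benjamini-Hochberg over all tested probe sets, with a threshold of 0.05. The fit was also run on simulated data with independent noise on each array, which lack the shared pattern of the replicate 3 arrays. Probe sets without an overlap between groups are those where all 3 BPA arrays lie on one side of all 3 control arrays.

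The members and gene lists were chosen with earlier results of these data known. All members were named in every probe set. In each list the kept probe set with the highest mean stood for a gene, and the 2 genes with the smallest p were to be named, with Mtf1 and the other ZnT and ZIP genes in every case. For cell type lists medians are given, and only those genes are named that bear on the members. Likeness is Pearson r over the 6 arrays, for the 3 nearest genes. Promoter windows are RefSeq's (GRCm38.p6), with those of chromosome 18, which carries Slc39a6, left out. All 10 symbols matched RefSeq's gene table. The number of arrays limits the precision. Alternatives were other scalings, filters, variance models, the ordinary test, the replicate number as a block, arrays left out, and averaging each gene's probe sets. Figures were drawn with matplotlib 3.10.9 in Python 3.11.15.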

Additional observations from a re-analysis of the deposited data

How the results depend on the processing

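The count of probe sets past the test, and that of member probe sets, was 0 in each of 17 alternatives, among them the 6 that leave out 1 array (0 to 0). Among the 17, changes of filter, variance model, test or block leave a difference as it is and could not turn it. Nor could averaging for genes with 1 tested probe set, Slc30a5 and Slc39a7 among them. Slc30a5, Slc30a7, Slc39a7 and Slc39a14 kept their direction in all 17, with differences of 0.17 to 0.45, 0.20 to 0.45, 0.26 to 0.59 and 0.14 to 0.28. The others turned at least once without passing the test, and the cause was not tested. Slc30a8 turned to 0.0030 under quantile normalization, 0.013 under median centring, 0.020 under cyclic loess, 0.042 without BPA replicate 1 and 0.029 without control replicate 3. Slc39a6 turned to -0.011 without BPA replicate 1, -0.020 without BPA replicate 2, -0.060 without control replicate 3, -0.021 without both replicate 3 arrays and -0.054 with the mean of its probe sets. Slc39a10 turned to -0.070 without BPA replicate 2 and -0.044 without control replicate 3. Slc30a1 turned to 0.0084 without control replicate 1, and Mt1 to 0.036 without BPA replicate 1. Mt2 turned to 0.19, 0.063 and 0.36 without BPA replicate 1, BPA replicate 2 and control replicate 3. With each array left out in turn the differences ran from -0.060 to 0.042 for Slc30a8, -0.23 to 0.0084 for Slc30a1, -0.060 to 0.053 for Slc39a6, -0.070 to 0.30 for Slc39a10, -0.60 to 0.036 for Mt1 and -0.43 to 0.36 for Mt2.

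With the replicate number as a block 0 probe sets passed after adjustment, and 3042 had an unadjusted p under 0.05 against 1458 without it (4 against 0 of the 16 member probe sets). The deviations of same-numbered arrays correlated at 0.48, 0.078 and 0.71. Replicates 1 and 2 also correlated across numbers (0.43 and 0.40), while replicate 3 correlated with them at -0.67 to -0.35. Deviations from a group's mean cancel out within the group, so these correlations are bound to each other and cannot decide on pairing. The numbers were not taken as pairs in the main fit. No call changed with the block, where Slc39a7 had an adjusted p of 0.315 and Slc30a5 one of 0.324.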
